A study of Arabidopsis thaliana with 10 samples.

Results

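The 5 genes described here, LHCB4.1 (AT5G01530), LHCB4.2 (AT3G08940), PSBY (AT1G67740), PSAN (AT5G64040) and PGRL1B (AT4G11960), are nuclear genes of Arabidopsis thaliana whose proteins work in the photosynthetic membrane of the chloroplast. They were chosen by name, with earlier results of these data known. Each is measured by 1 probe set that the array's annotation assigns to exactly 1 gene, out of 13356 genes measured in that way. Transcript levels came from 10 single-colour arrays in 5 groups of 2: the ecotype Col at room temperature and after 24 h at 4 °C, and the ecotype C24 at room temperature and after 3 h and 24 h at 4 °C. Col is the accession of the reference genome, and C24 is a different natural accession. No mutation, transgene or chemical treatment is named for any group, and Col was not sampled at 3 h. All plants grew on plates of half-strength MS medium in a chamber at 23 and 18 °C, and the sources differ on their age: sample labels name the leaf tissue of seedlings 20 days old, and the series description names seedlings 14 days old. The same description states that replicates are biological. Levels are deposited log2 signals, a change is a difference of log2 signals, and a gene is called changed at an adjusted p below 0.05 (limma, Benjamini-Hochberg over 22746 probe sets).

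Photosystem II splits water and passes electrons through the cytochrome b6f complex and plastocyanin to photosystem I, which reduces ferredoxin. LHCB4.1 and LHCB4.2 are closely related genes for CP29, a minor antenna protein that sits between the photosystem II core and the outer light-harvesting trimers. PSBY encodes a small hydrophobic subunit of photosystem II, and PSAN encodes a subunit of photosystem I on the lumenal side, where plastocyanin docks. PGRL1B encodes a membrane protein that acts with PGR5 in cyclic electron flow, which returns electrons from photosystem I to the plastoquinone pool. Cold slows carbon fixation more than light capture, so leaves in the cold have to balance the light they absorb against the electrons they can use.

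The arrays differed in ways that ran with the ecotype. The mean of 12 poly-A control probe sets, for bacterial transcripts added to the RNA, lay between 6.94 and 7.24 on the C24 arrays and between 5.74 and 5.78 on the Col arrays. The 3' minus 5' difference of the GAPDH control, which grows with RNA degradation, lay between 0.374 and 0.864 in C24 and between 0.0947 and 0.314 in Col, with its highest value in C24 at room temperature. Of 10 green leaf markers, 3 had a named probe set (the Rubisco activase RCA and the Calvin cycle enzymes PRK and SBPASE), and their lowest percent rank on any array was 98.6. Of 10 root markers, 3 had a named probe set (PYK10, EXPA7 and EXPA18), none of them below the array's lower quartile. Their summed signal, on the log2 scale, was 10.65 to 10.68 in C24 at room temperature against 12.75 to 12.97 in Col at room temperature, 12.26 to 12.33 in Col after 24 h, 12.54 to 12.57 in C24 after 3 h and 11.62 to 11.64 in C24 after 24 h. PYK10 carried nearly all of that sum, with group means of 12.53 in C24 after 3 h and 12.25 in Col after 24 h. EXPA7 (5.34 and 5.95) and EXPA18 (5.76 and 6.11) stood in the opposite order in those groups. All 3 root markers were lowest in C24 at room temperature and highest in Col at room temperature. None of 3 seed markers had a named probe set. The part of these measures in the differences between ecotypes, and in the changes from C24 at room temperature, was not tested, and a difference between ecotypes in transcript level cannot be told apart from a difference in how well their sequence matches probes designed on the reference genome.

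After 24 h of cold, 4 of the 5 genes had fallen in Col and all 5 had fallen in C24. In Col these were LHCB4.1, LHCB4.2, PSBY and PGRL1B, with PSAN short of the threshold. Over all probe sets 25.9% were called lower in Col and 25.4% in C24. The median change of the 5 genes was -0.30 in Col and -0.55 in C24, against 0.0079 and -0.02 over all probe sets. Because the genes were chosen with earlier results of these data known, such counts and medians describe them and test no excess. After 3 h in C24, 2 of the 5 were called lower, LHCB4.1 and PSAN, against 23.2% of all probe sets, and both calls depended on single arrays, as described for each gene. Between 3 h and 24 h in C24, LHCB4.2, PSAN, PSBY and PGRL1B fell, 4 of 5 against 22.5% of all probe sets. By limma with its standard settings no member was called higher in these 4 comparisons or rose at an unadjusted p below 0.05, whereas 2 alternative settings called PSBY higher in C24 after 3 h, as given with that gene. In whole seedlings or leaves, fewer cells of a type and less RNA per cell cannot be told apart. The comparisons of C24 with its room temperature share the same 2 control arrays. No harvest hour is among the sample details used here, so the part of time of day in the 3 h and 24 h values was not tested. With a 2-fold minimum added, 2 members passed in C24 after 24 h (LHCB4.2 and PGRL1B, against 11% of all probe sets) and 1 from 3 h to 24 h (PGRL1B, 7.21%). PGRL1B was the 1 member past 2-fold between ecotypes at room temperature (11.2%). No member passed 2-fold in Col after 24 h (8.38%), in C24 after 3 h (7.11%), between ecotypes after 24 h (8.12%) or for the difference of responses (11.2%).

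**Figure D1:**
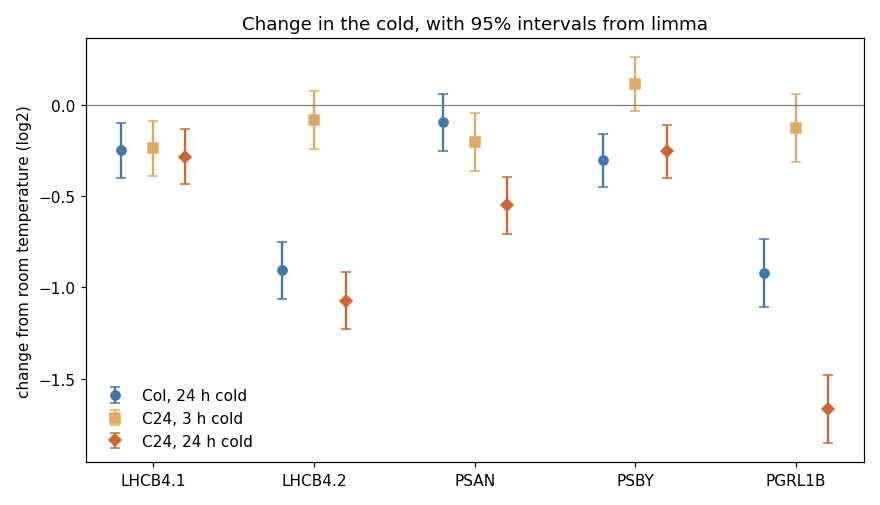
Change of each gene from room temperature in Col after 24 h, in C24 after 3 h and in C24 after 24 h of cold, on the log2 scale, with 95% intervals from limma. LHCB4.2 and PGRL1B show the deep falls at 24 h in both ecotypes, and at 3 h in C24 their intervals span 0.

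The antenna gene LHCB4.2 gave the widest steps among the genes near the top of the signal range. Its arrays read 13.35 and 13.26 in Col at room temperature and 12.43 and 12.36 in Col after 24 h of cold. In C24 they read 12.44 and 12.50 at room temperature, 12.40 and 12.38 after 3 h, and 11.43 and 11.36 after 24 h. The levels thus fell into 3 tiers: Col at room temperature on top, C24 after 24 h at the bottom, and the other 3 groups between 12.36 and 12.50. Within the middle tier the neighbours in the order did not differ (C24 at room temperature above Col after 24 h by 0.07, adjusted p = 0.407; Col after 24 h above C24 after 3 h by 0.0095, adjusted p = 0.928), while both steps out of it did.

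In Col, LHCB4.2 fell by 0.91 ± 0.07 (SE, limma adjusted p = 1.15e-06), to 53.3% of its room temperature signal, and no array of one group overlapped the other. In C24 it fell by 1.07 ± 0.07 after 24 h (adjusted p = 1.94e-07), to 47.6%. These changes stood at percentile 5.24 and 4.47 of all probe sets' changes in the same comparison, counted from the strongest fall. After 3 h the change was -0.08 ± 0.07 (adjusted p = 0.382, 95% interval -0.24 to 0.07), and between 3 h and 24 h the level fell by 0.99 ± 0.07 (adjusted p = 6.67e-07). C24 lay below Col by 0.83 ± 0.07 at room temperature (adjusted p = 1.74e-06) and by 1.00 ± 0.07 after 24 h of cold (adjusted p = 5.76e-07). The 24 h responses of the ecotypes differed by -0.17 (95% interval -0.39 to 0.06, adjusted p = 0.228), a difference that passed with an intensity trend and robust prior (adjusted p = 0.0433). C24 thus lay below Col at both temperatures, with no overlap of arrays at either.

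LHCB4.1, the other CP29 gene, moved far less and lay at the upper end of each array, above 99.8% of probe sets. Its arrays read 13.79 and 13.86 in Col at room temperature and 13.59 and 13.56 in Col after 24 h. In C24 they read 14.04 and 13.99 at room temperature, 13.79 and 13.76 after 3 h, and 13.70 and 13.76 after 24 h. The highest signal on any array was 14.52, so the gene had little room above it, and whether signals this high compress differences was not tested. The same limit holds for PSAN and PSBY, whose lowest ranks on any array were 99.6% and 99.7%. C24 at room temperature was the highest group and Col after 24 h the lowest, and Col at room temperature overlapped C24 after 3 h.

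In Col, LHCB4.1 fell by 0.25 ± 0.07 (limma adjusted p = 0.0105), to 84.3% of its room temperature signal, a call lost without Col room temperature replicate 2 (-0.21, adjusted p = 0.0708). In C24 it fell by 0.24 ± 0.07 after 3 h (adjusted p = 0.0145) and by 0.28 ± 0.07 after 24 h (adjusted p = 0.00462), with -0.05 between the times (95% interval -0.20 to 0.11, adjusted p = 0.643). The 3 h call was lost without C24 room temperature replicate 1 (adjusted p = 0.0766) or C24 3 h replicate 2 (0.0676), whereas the 24 h call held with each array left out. C24 lay above Col by 0.19 ± 0.07 at room temperature (adjusted p = 0.0353). That call was lost without either Col room temperature array (adjusted p = 0.168 without replicate 1 and 0.0501 without replicate 2), without either C24 room temperature array (0.141 and 0.065) and without either C24 24 h array (0.0506 each). It was also lost after another quantile normalisation (0.0729) and with only the arrays compared (0.0742). After 24 h of cold C24 lay above Col by 0.15 ± 0.07, short of the threshold (adjusted p = 0.0873), and the call was gained after another quantile normalisation (0.20, adjusted p = 0.0372) or with an intensity trend (adjusted p = 0.00141). The 24 h responses differed by -0.04 (95% interval -0.25 to 0.18, adjusted p = 0.808).

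At room temperature the CP29 genes stood in opposite order between the ecotypes: C24 was above Col for LHCB4.1 and below Col for LHCB4.2. The LHCB4.1 difference was small (0.19), and its call was lost in several alternatives, as given above. Levels of different probe sets cannot be compared as such, but the difference of LHCB4.1 minus LHCB4.2 on the same array can be followed across groups. It was 0.44 and 0.60 in Col at room temperature and 1.16 and 1.20 in Col after 24 h. In C24 it was 1.60 and 1.48 at room temperature, 1.39 and 1.39 after 3 h, and 2.27 and 2.39 after 24 h. No 2 groups overlapped in this difference, which was least in Col at room temperature and greatest in C24 after 24 h. It shows unequal change of the probe sets and was not tested. LHCB4.3 (AT2G40100), the third gene of this family, is described with the wider pathway.

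**Figure D2:**
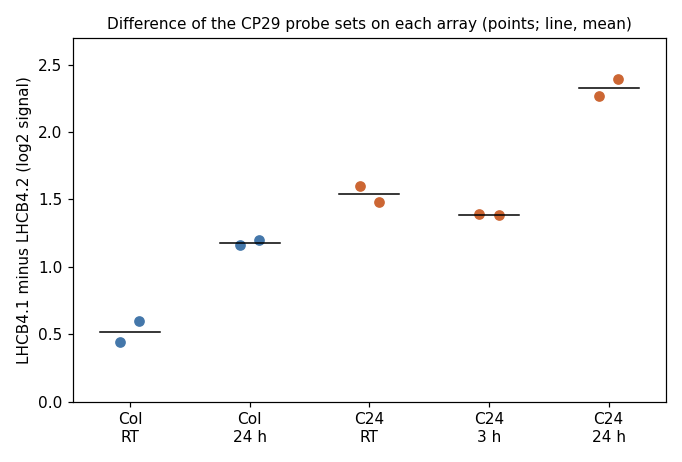
Difference between the LHCB4.1 and LHCB4.2 signals on each array (log2, vertical axis) in the 5 groups, Col in blue and C24 in orange, with points for arrays and lines for group means. The difference widens after 24 h of cold in both ecotypes and is wider in C24 than in Col at the same temperature.

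PSBY, the photosystem II subunit, read 13.42 and 13.46 in Col at room temperature and 13.12 and 13.15 after 24 h. In C24 it read 13.34 and 13.36 at room temperature, 13.50 and 13.44 after 3 h, and 13.09 and 13.10 after 24 h. The 24 h arrays of both ecotypes lay below all other arrays of the series for this gene. PSBY fell by 0.30 ± 0.07 in Col (limma adjusted p = 0.00266), to 81.1%, and by 0.25 ± 0.07 in C24 after 24 h (adjusted p = 0.00752), to 83.9%. The fall in C24 was -0.13 and missed the threshold after another quantile normalisation (adjusted p = 0.116). After 3 h the change in C24 was 0.12 ± 0.07 (adjusted p = 0.186), which passed as a rise after another quantile normalisation (0.22, adjusted p = 0.0162) and with an intensity trend (adjusted p = 0.015). From 3 h to 24 h PSBY fell by 0.37 ± 0.07 (adjusted p = 0.000789), and this call held under every alternative tried at the same threshold, with adjusted p-values up to 0.00909.

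For PSBY neither difference between the ecotypes passed the threshold. C24 minus Col was -0.09 at room temperature (95% interval -0.23 to 0.06, adjusted p = 0.285) and -0.04 after 24 h (interval -0.19 to 0.11, adjusted p = 0.665). The first of these passed the threshold after another quantile normalisation (-0.26, adjusted p = 0.00526), as did the difference of the 24 h responses (0.05, adjusted p = 0.726, against 0.25, adjusted p = 0.0471). In the order of levels, neighbours among C24 after 3 h, Col at room temperature and C24 at room temperature did not differ. The step from C24 at room temperature down to Col after 24 h passed the threshold (0.21, limma adjusted p = 0.016). Col and C24 after 24 h did not differ (adjusted p = 0.665).

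PSAN, the photosystem I subunit, read 13.53 and 13.43 in Col at room temperature and 13.43 and 13.34 in Col after 24 h, so the Col groups overlapped. In C24 it read 13.55 and 13.51 at room temperature, 13.32 and 13.33 after 3 h, and 12.96 and 13.00 after 24 h. C24 after 24 h lay below every other array, and it was the only group set off from its neighbour in the order of levels (0.35 below C24 after 3 h, limma adjusted p = 0.00191). In Col the change was -0.09 ± 0.07 (95% interval -0.25 to 0.06, adjusted p = 0.307). In C24 the fall after 24 h was 0.55 ± 0.07 (adjusted p = 4.98e-05), to 68.3% of the room temperature signal.

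The 24 h response of PSAN was therefore more negative in C24 than in Col, by -0.46 ± 0.10 (SE; 95% interval -0.68 to -0.23; limma adjusted p = 0.00375), at percentile 14.8 of all probe sets. At room temperature the ecotypes differed by 0.05 (interval -0.11 to 0.21, adjusted p = 0.593), and after 24 h of cold C24 lay below Col by 0.41 ± 0.07 (adjusted p = 0.000599). The fall at 3 h in C24 was small, at 0.20 ± 0.07 (adjusted p = 0.0379). Leaving out any one of the 6 C24 arrays lost this call: the adjusted p was 0.137 and 0.0836 without the first and the second room temperature array, 0.119 and 0.105 without those at 3 h, and 0.0551 without either at 24 h. After another quantile normalisation the change was -0.05 (adjusted p = 0.612), and with only the arrays compared the adjusted p was 0.0619. The 24 h fall, the difference after 24 h and the difference of responses kept their calls under every alternative tried at the same threshold, with adjusted p-values up to 0.000941, 0.00763 and 0.0232.

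PGRL1B, the cyclic electron flow gene, was the one member well below the top of the signal range, between the 65.0% and 89.6% ranks of its arrays. It read 8.47 and 8.53 in Col at room temperature and 7.55 and 7.61 after 24 h. In C24 it read 9.42 and 9.61 at room temperature, 9.34 and 9.44 after 3 h, and 7.90 and 7.80 after 24 h. C24 at room temperature and after 3 h overlapped and stood on top, Col at room temperature came next, and the arrays after 24 h of cold were lowest in both ecotypes. Every other step in that order passed the threshold, from 0.89 between C24 after 3 h and Col at room temperature (limma adjusted p = 5.72e-06) to 0.27 between the cold groups.

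In Col, PGRL1B fell by 0.92 ± 0.08 (limma adjusted p = 4.02e-06), to 52.9%. In C24 it fell by 1.67 ± 0.08 after 24 h (adjusted p = 2.14e-08), to 31.5%, at percentile 1.68 of all changes in that comparison. Nearly all of this fall came after 3 h, when the change was -0.12 ± 0.08 (95% interval -0.31 to 0.06, adjusted p = 0.264), and the step from 3 h to 24 h was -1.54 ± 0.08 (adjusted p = 8.24e-08). The response at 24 h was more negative in C24 by -0.75 ± 0.12 (interval -1.01 to -0.48, adjusted p = 0.000413). C24 lay 2.02-fold above Col at room temperature (1.01 ± 0.08, adjusted p = 1.38e-06), at percentile 95.5 of all ecotype differences. After 24 h of cold it lay 1.20-fold above (0.27 ± 0.08, adjusted p = 0.0224), a call lost without Col 24 h replicate 1 (0.24, adjusted p = 0.0979), without C24 24 h replicate 1 (0.21, adjusted p = 0.141) and after another quantile normalisation (0.21, adjusted p = 0.0612). The gap between the ecotypes was therefore narrower in the cold, as the test of the difference of responses shows.

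**Figure D3:**
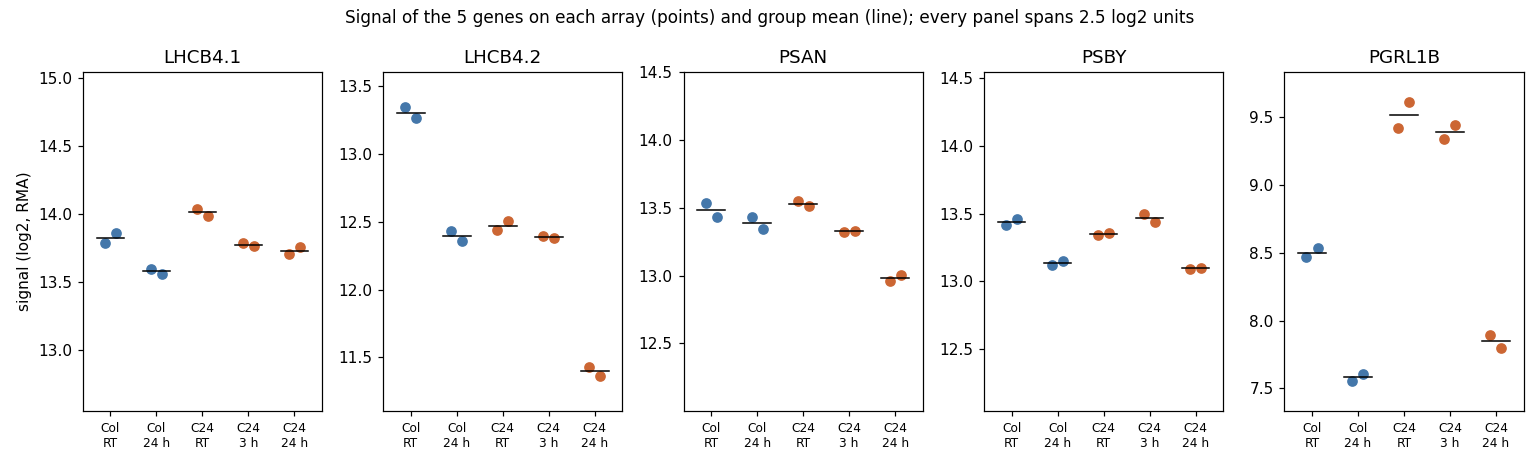
Signal of the 5 genes (log2, vertical axis) on each of the 10 arrays, Col in blue and C24 in orange, with points for arrays and lines for group means; each panel spans 2.5 log2 units. PGRL1B and LHCB4.2 span over 1.9 log2 units between group means, and the other genes span 0.37 to 0.55.

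Between the ecotypes, 3 of the 5 genes differed at room temperature (LHCB4.1 and PGRL1B higher in C24, LHCB4.2 lower), where 56% of all probe sets differed. After 24 h of cold 3 differed as well (PGRL1B higher, LHCB4.2 and PSAN lower), against 49.3% of all probe sets. Both counts were near the background. For the difference of the 24 h responses 2 of 5 passed, PSAN and PGRL1B, against 39.5% of all probe sets, also near the background.

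The room temperature groups of the ecotypes lay 0.761 apart, as the root of the mean squared log2 difference over probe sets. Their 24 h groups lay 0.604 apart. C24 in the cold was therefore also set against Col at room temperature, a choice made after the data were seen. By the same measure, however, C24 in the cold lay nearer to its own room temperature group (0.567 at 3 h, 0.680 at 24 h) than to that of Col (0.629 and 0.755). C24 after 24 h lay below Col at room temperature for LHCB4.2 (-1.91, limma adjusted p = 2.01e-09), PGRL1B (-0.65, 4.21e-05), PSAN (-0.50, 8.76e-05) and PSBY (-0.34, 0.000932), 4 of 5 where 26.9% of all probe sets were lower. LHCB4.1 stood at -0.09 (adjusted p = 0.265) and was not called. After 3 h, LHCB4.2 was lower than in Col at room temperature (-0.92) and PGRL1B higher (0.89, adjusted p = 5.72e-06), 2 of 5 where 47.9% of all probe sets differed, and these values hold the difference between ecotypes as well as the cold.

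Signal level bears on the share of calls, so the 4 bright members were also read against the 311 probe sets with a mean signal of at least 12. Of those, 39.9% were lower in Col after 24 h, 28% in C24 after 3 h and 40.5% in C24 after 24 h. The median change over the 311 probe sets was -0.14, 0.02 and -0.04 in these comparisons. In Col it thus lay further below 0 than the median over all probe sets (0.0079). The bright members LHCB4.1, LHCB4.2, PSBY and PSAN were lower in 3, 2 and 4 of 4 cases.

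Of 70 other nuclear genes listed for the photosystems, electron carriers, cyclic flow, ATP synthase and antenna kinases, 11 had a probe set with 1 named gene, and the photosystem I antenna and the kinases had none. The list was drawn up with earlier results of these data known. After 24 h of cold 5 of the 11 fell in Col (median -0.19), against 25.9% of all probe sets, and 10 of 11 fell in C24 (median -0.79), against 25.4%. In C24 after 3 h 4 fell and 1 rose, against 23.2% and 22.5%, and from 3 h to 24 h 8 fell, against 22.5%. At room temperature 7 of 11 were higher in C24 than in Col, against 32.7% of all probe sets, and none lower, with a median of 0.31 against 0.09 over all probe sets. After 24 h 5 were higher and 2 lower, against 28.1% and 21.2%, the second count being near the background.

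By role, the CP29 relative LHCB4.3 read 10.02 and 10.06 in Col at room temperature, 9.27 and 9.21 in Col after 24 h, 10.30 and 10.31 in C24 at room temperature, 10.72 and 10.75 after 3 h, and 9.46 and 9.36 after 24 h. It fell by 0.80 in Col and by 0.89 in C24 after 24 h, but rose by 0.43 in C24 after 3 h (limma adjusted p = 0.00038), where LHCB4.1 fell and LHCB4.2 stood at -0.08. Among photosystem subunits, PSAE-1, on the stromal side of photosystem I, fell by 0.36 in Col and by 0.47 in C24 after 24 h. PSB27, a factor in the assembly of photosystem II, fell by 0.58 and 1.02, and PSBW, a small photosystem II subunit, stood at -0.19 in Col (adjusted p = 0.0843) and fell by 0.50 in C24.

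The 3 measured genes of the NADH dehydrogenase-like route of cyclic flow were all higher in C24 than in Col at room temperature, as PGRL1B was. The NADH dehydrogenase-like subunits NdhL and NdhN lay 1.09 and 1.20 above Col, and PIFI, a protein linked to chlororespiration, lay 1.54 above. After 24 h they fell in C24 by 1.11, 0.79 and 1.12, and in Col NdhL fell by 0.46, NdhN fell by 0.60 and PIFI stood at 0.01. Unlike PGRL1B, all 3 had already fallen after 3 h in C24, by 0.46, 0.73 and 0.61. CYTC6A, a cytochrome of the thylakoid lumen, lay 2.48 above Col at room temperature. It read 10.18 and 10.15 in C24 at room temperature, 8.94 and 8.80 after 3 h, and 8.45 and 8.41 after 24 h, a fall at both times, with a change of 0.05 in Col (adjusted p = 0.679). The carrier-list gene AT2G26500 stood at -0.06 in Col and fell by 0.28 in C24 after 24 h. The ATP synthase gamma subunit ATPC1 stood at -0.15 in Col (adjusted p = 0.0915) and fell by 0.32 in C24, and its relative ATPC2 was not called in either (-0.13 and -0.23). The leaf markers RCA, PRK and SBPASE also fell after 24 h, by 0.42, 0.46 and 0.31 in Col and by 0.19, 0.65 and 0.18 in C24. The falls of RCA and SBPASE were thus smaller in C24, and none of the 3 markers was called for the difference of responses (median 0.13). At room temperature PRK and SBPASE were higher in C24 by 0.34 and 0.35, and RCA stood at -0.04 (limma adjusted p = 0.673).

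**Figure D4:**
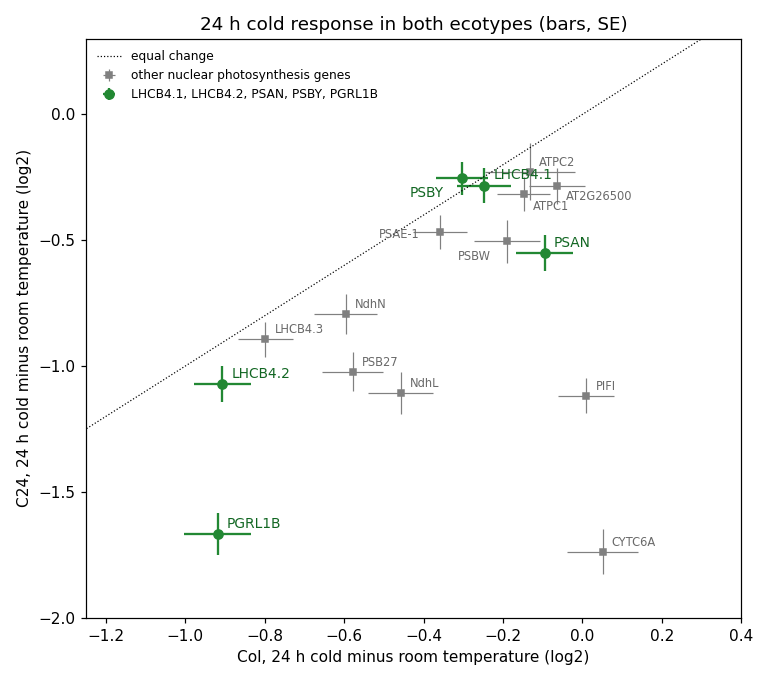
Change after 24 h of cold in Col (horizontal axis) against that in C24 (vertical axis), log2 with SE bars, for the 5 genes (green) and the 11 other nuclear photosynthesis genes (grey); the dotted line marks equal change. LHCB4.1 and PSBY lie at the line within their SE, PSAN and PGRL1B lie below it, and CYTC6A and PIFI lie farthest below.

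Across the 10 arrays, which share groups and ecotypes, the members did not follow a single profile. Pearson correlations between pairs of members ran from 0.24 (LHCB4.1 with LHCB4.2, Spearman 0.66) to 0.85 (LHCB4.2 with PSAN, Spearman 0.82). Among 13512 other probe sets with 1 gene, the profile nearest to LHCB4.1 was that of AT5G16800 (r = 0.988), followed by AT5G22620 and AT1G73820 (0.984 each). Those nearest to LHCB4.2 were AT3G17940 (0.988), AT2G30620 (0.985) and AT3G53370 (0.985), which lay 0.89, 0.61 and 0.64 below Col in C24 at room temperature. Nearest to PSAN were psbL (0.981), AT5G63620 (0.975) and psbF (0.973), of which psbL and psbF are plastid genes for small photosystem II subunits. They changed by -0.98 and -1.02 in C24 after 24 h, against -0.19 each in Col. Nearest to PSBY were AT5G45670 (0.977), BUB3.1 (0.976) and AT4G26790 (0.975). Nearest to PGRL1B were AT1G70820 (0.997), the cytochrome P450 gene CYP71B24 (0.996) and AT5G02230 (0.993), with differences from Col of 0.95, 1.51 and 0.73 in C24 at room temperature. Correlations of at least 0.95 were reached by 24 (PSAN) to 85 (PGRL1B) probe sets, so these neighbours are a description of 5 group levels and carry no test.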

How the data were processed

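The authors deposited log2 signals from GCOS and RMA (background correction, quantile normalisation and a summary over probes), per the submitters' processing notes, which give no versions. Total RNA had been cleaned on columns and biotin labelled, per the labels. Whether all arrays were processed together is not stated in the sources used here, and no batch or scan date is given. The table holds 22810 probe sets, and the 22746 that are no controls were all tested. The annotation names exactly 1 gene for 13513 of these (13356 genes), with locus codes from RefSeq (TAIR10.1) for 13436.

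A linear model with a mean per group was fitted across the 10 arrays (limma 3.58.1 under R 4.3.3, functions lmFit and eBayes), and p-values were adjusted by Benjamini-Hochberg over all probe sets within each comparison. All 10 pairs of groups and the difference of the 24 h responses were fitted. With 2 arrays per group their number limits the precision: the median SE was 0.0878 for a difference and 0.124 for the difference of responses. Where nothing but the series text says that replicates came from separate plants, p-values measure the spread between these arrays. The members and lists were chosen with earlier results of these data known. Named are all members, every measured gene of a list with at most 5, and the 3 genes with the highest correlation to each member. Of several probe sets for 1 list gene, the brightest was used. The fit was also run on simulated data with independent noise and shifts in few probe sets. Far more probe sets were called in the real data, so that run does not show how the calls behave here. The alternatives were another quantile normalisation, median centring, a replicate block, a robust prior with an intensity trend, probe sets under the lowest quartile of mean signal removed, only the arrays compared, a 2-fold minimum and each array left out. Sequences of the members were not used here.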

Additional observations from a re-analysis of the deposited data

Results flagged for a closer look

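For 2 of the 5 genes the 24 h cold response differed between the ecotypes by the test of the difference itself (limma, Benjamini-Hochberg over all probe sets), a count near the 39.5% of all probe sets that passed the same test. PSAN changed by -0.46 more in C24 than in Col (adjusted p = 0.00375), and both C24 arrays after 24 h lay below all other arrays. PGRL1B changed by -0.75 more in C24 (adjusted p = 0.000413), from a room temperature level that was higher in C24 on both arrays. Groups of 2 arrays allow no check for outlying samples.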

How the results depend on the processing

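Of 560 member changes recomputed under the alternatives named above other than the 2-fold minimum, 530 kept their call and direction, 23 lost a call, 7 gained one and none changed sign while called. The lost and gained calls of LHCB4.1, PSAN, PSBY, PGRL1B and LHCB4.2 are given with each gene. With a 2-fold minimum added, limma called 0 members in Col after 24 h, 0 in C24 after 3 h, 2 in C24 after 24 h, 1 between 3 h and 24 h, 1 between ecotypes at room temperature, 0 between ecotypes after 24 h and 0 when responses were compared. With no such minimum, at an unadjusted p below 0.05, the members numbered 4, 2, 5, 4, 3, 4 and 2 of 5, against 54.5%, 51.8%, 54.2%, 50%, 60.7%, 54.7% and 46.8% of all probe sets. The probe sets called with the minimum numbered 1906, 1617, 2496, 1641, 2543, 1847 and 2554. The members called in C24 after 3 h numbered 1 with only the arrays compared, 0 to 2 with single arrays left out, 3 (2 lower, 1 higher) with the intensity trend, and 2 (1 lower, 1 higher) after another quantile normalisation. With each array left out the counts of members were 3 to 4 in Col after 24 h, 5 in C24 after 24 h, 4 between the times, and 2 to 3 in each ecotype comparison. Against Col at room temperature, a choice made after the data were seen, the 3 h change of PGRL1B reversed from -0.12 to 0.89, since that choice adds the difference of 1.01 between the ecotypes at room temperature. In the same setting the 3 h and 24 h calls of LHCB4.1 (-0.05 and -0.09) and the 3 h call of PSAN (-0.15) were lost and LHCB4.2 gained one at 3 h (-0.92). The replicate numbers did not pair the arrays: same-numbered deviations correlated between -0.12 and 0.12 over 10 pairs of groups. With the replicate block 11142 probe sets were called in Col after 24 h and 11227 in C24 after 24 h, against 11174 and 11254 without it, and no call of a member changed.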
